A study of Mus musculus with 4 samples.

Results

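The genes described here were 8 basic helix-loop-helix (bHLH) genes: the proneural gene Neurog2, the inhibitor genes Id1, Id2, Id3 and Id4, and the E-protein genes Tcf3, Tcf4 and Tcf12. They were listed by name, as partners of a single regulatory circuit and with earlier results of these data known, and were 8 of the 28277 genes named in the tables of the series. The samples were neural stem cell (NSC) lines made from mouse epiblast stem cells, the cultured counterpart of the epiblast that precedes the neural plate, of the 129/Sv strain. The medium of every line held the growth factors EGF and FGF2, each at 10 ng/ml. XN4 and XN1 also received 10 µM XAV939, a tankyrase inhibitor that lowers Wnt signaling, CN4 received 2 µM CHIR99021, a GSK3 inhibitor that activates Wnt signaling, and KN1 received neither. The XAV939 came from different suppliers for XN4 and XN1, and per the methods that used for XN1 formed crystals in the medium, so the dissolved dose of these lines may have differed. Each line was 1 single-cell library, so the line, its culture condition and its library cannot be told apart.

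A bHLH factor binds DNA as a dimer. Proneural factors such as Neurog2 pair with the broadly expressed E proteins, and the pairs bind E-box sequences and drive neuronal differentiation. Id proteins have the helix-loop-helix part without the basic DNA-binding part, take up E proteins in inactive pairs, and are known as targets of BMP signaling that hold neural progenitors undifferentiated. In this family Tcf3 is the gene of the E2A proteins E12 and E47, Tcf4 that of E2-2, and Tcf12 that of HEB. Tcf7l1 and Tcf7l2, the Wnt effectors whose proteins are often called TCF3 and TCF4, are different genes and were kept apart.

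In the genome (GRCm38, GENCODE M21) the inhibitor genes are short. Id1 lies at chr2:152736251-152737410 on the plus strand, Id2 at chr12:25093799-25097140 on the minus strand, Id3 at chr4:136143497-136145755 on the plus strand and Id4 at chr13:48261228-48266026 on the plus strand. Neurog2 lies at chr3:127633135-127635631 on the plus strand. Of the E-protein genes, Tcf3 lies at chr10:80409514-80433647 and Tcf12 at chr9:71842688-72111871, both on the minus strand. The spans ran from 1.16 kb for Id1 to 4.80 kb for Id4, against 24.1 kb for Tcf3, 269 kb for Tcf12 and 346 kb for Tcf4. Reads in introns were counted where the settings are known. Id4 overlaps A330033J07Rik and Gm49291 on the other strand, and Tcf12 shares its strand with overlapping predicted genes, so reads could be split among them.

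The normalized tables held 3927 cells of XN4, 3905 of XN1, 3975 of KN1 and 3448 of CN4, with a median of 4637 to 7796 reads per cell. Values are reads and not molecules, so all intervals below cover counting error only and are too narrow where 1 molecule gave several reads. Levels are given in rpm, the reads of a gene scaled to the reads of its table, where 10000 rpm are 1% of the reads. The KN1 library stood apart in complexity: its cells had a median of 833 genes against 2257 to 2824 in the other lines, and 5 reads per gene and cell against 1 or 2. XN4 stood apart in identity. Sox2, a defining neural progenitor gene, had a read in 0.560% of its cells. Fabp7 and Hes5 had 0 reads in the 8741 cells of its table of all reads. The floor set there, 3 counts or 0.0343% of cells, is a fixed setting and not an interval. In XN4, 15 connective tissue genes summed to 11553 rpm against 117 to 342 in the other lines. The 10 neural progenitor genes summed to 1656 rpm in XN4 and 2109 to 8061 in the other lines. These markers went against the neural label of XN4, and the comparisons among XN1, KN1 and CN4 below are those without it. Between 14 and 21 cell barcodes were shared by any pair of normalized tables.

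Neurog2 transcripts were near the limit of detection. The gene was not listed in any of the 4 normalized tables, whose rarest listed genes were found in 3 to 7 cells. In the tables of all reads, Neurog2 had 17 reads in 14 of 18157 CN4 cells, or 0.0771% (exact 95% interval 0.0422 to 0.129%). In XN1 it had 2 reads in 2 of 14452 cells, or 0.0138% (0.00168 to 0.04998%), and in XN4 it was not listed. Neurog2 is the gene that starts neurogenesis in much of the dorsal neural tube, and its partners and inhibitors below were thus measured where it was almost undetected. Of the related neurogenic genes, Bhlhe22, a bHLH repressor of projection neurons, had 14.2 rpm in XN4, 0.726 in XN1 and 13.2 in CN4.

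Over the 4 lines, the Id genes were the members that varied most. Id1, a classical BMP target, had 60.5 rpm for XN4 (58.2 to 63.0), 25.8 for XN1 (23.6 to 28.2), 11.8 for KN1 (10.5 to 13.1) and 26.8 for CN4 (24.7 to 29.0). XN4 was the highest and KN1 the lowest, and the intervals of XN1 and CN4 overlapped. Id2 had 18.6 rpm for XN4 (17.3 to 20.0), 206 for XN1 (200 to 213), 14.6 for KN1 (13.2 to 16.1) and 163 for CN4 (158 to 168). This gene, known for expression in progenitors and glial precursors, thus split the lines into a pair with high levels, XN1 and CN4, and a pair with low levels. Id3 had 425 rpm for XN4 (418 to 431), 274 for XN1 (266 to 281), 99.5 for KN1 (95.8 to 103.3) and 455 for CN4 (446 to 464).

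Id4 was measured at an appreciable level in CN4, where it had 50.2 rpm (47.4 to 53.2), with 1.505 in XN1 (1.01 to 2.16). Id4, which marks astrocyte precursors and quiescent stem cells in the later nervous system, was not listed in the normalized tables of XN4 and KN1. In the tables of all reads it had 5667 reads in CN4, 73 in XN1 and 19 in XN4. Its level in CN4, scaled to the total reads, was there 39.97 times that in XN1 (31.7 to 51.1) and 231 times that in XN4 (148 to 385). The share of cells with an Id4 read was 12.7% of 18157 cells in CN4, 0.367% of 14452 in XN1 and 0.137% of 8741 in XN4. No table of all reads of KN1 was used here, so its Id4 level is known only as not listed in a table whose rarest listed gene was found in 7 cells.

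The stretches before the RefSeq transcription starts of Id2 and Id4 are printed here because these were the inhibitor genes that differed most between lines. They come from the RefSeq promoter table (GRCm38.p6), which held 6 of the 8 members, and are given 5′ to 3′ on the gene's strand. Bases within an annotated exon were left off, so the Id2 stretch is the part of its window farthest from the start. The Id2 start used is internal to the gene span given above, and the printed Id2 bases lie within that span, in an intron of a longer annotated transcript, whereas those of Id4 lie before the whole gene. Capitals mark matches to the E-box letters CANNTG and to GGCGCC, a GC-rich element known from BMP-responsive Id promoters. Both motifs read the same on either strand, and no matches of the 2 overlapped.
Id2 (chr12:25096254-25096342, minus strand): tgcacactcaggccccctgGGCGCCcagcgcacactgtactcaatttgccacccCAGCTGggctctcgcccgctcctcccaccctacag
Id4 (chr13:48260866-48261115, plus strand): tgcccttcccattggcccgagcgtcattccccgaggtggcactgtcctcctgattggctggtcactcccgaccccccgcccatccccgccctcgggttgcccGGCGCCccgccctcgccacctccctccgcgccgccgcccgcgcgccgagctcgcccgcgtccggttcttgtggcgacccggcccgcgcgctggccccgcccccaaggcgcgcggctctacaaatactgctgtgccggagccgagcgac

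In the 250 bases before the RefSeq start, Id2 had 1 E-box match and 1 match to GGCGCC, Id4 had 0 and 1, and Id3, whose window also begins inside its annotated span, had 0 and 0. Of 32851 promoters of the same length, 66.2% held CANNTG and 9.59% held GGCGCC. A match is a description of the letters and not of a bound site.

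The levels were also scored per cell. Cells were thinned to 3200 reads each, which left 3384 cells of XN4, 3129 of XN1, 3396 of KN1 and 3158 of CN4. Id3 had a read in 57.0% of thinned cells for XN4, 47.3% for XN1, 10.8% for KN1 and 61.2% for CN4. For Id2 the shares were 3.90%, 37.6%, 1.62% and 26.4% in the same order. Before thinning, the Id2 shares were 7.82%, 45.9%, 2.01% and 37.4%, and the Id3 shares 69.6%, 55.3%, 12.5% and 72.5%. For Id2 and Id3 the shares put the lines in the same order as the reads. The place of KN1 is not read as agreement, since its share was low for Tcf3 too. Tcf3 had 93.3 rpm in KN1, above the 79.9 of XN4 and the 69.3 of XN1. Yet it had a read in 10.9% of thinned KN1 cells, against 18.9% in XN4 and 17.7% in XN1.

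**Figure D1:**
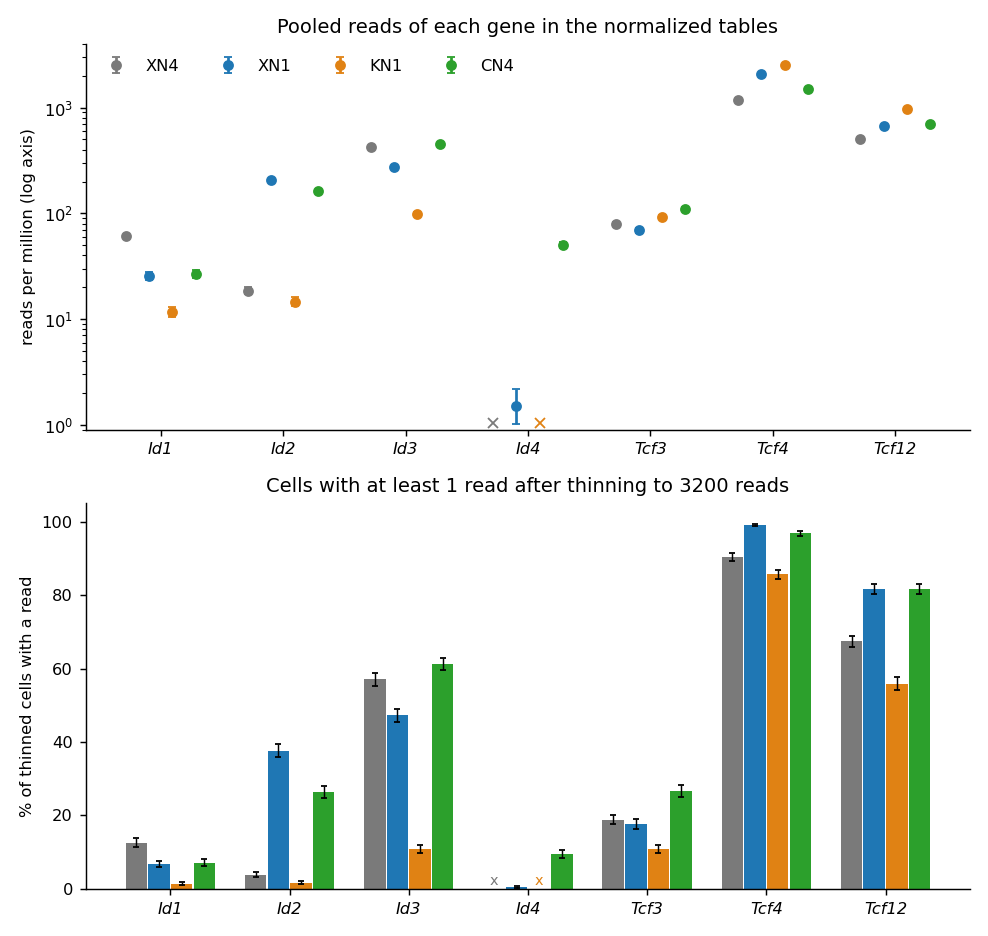
Levels of the 7 members listed in the normalized tables. The upper plot gives pooled reads (rpm) on a log axis with exact Poisson 95% intervals, and the lower plot the percent of thinned cells with at least 1 read with exact binomial 95% intervals; a cross marks a gene not listed. Id2 was high in XN1 and CN4 and low in XN4 and KN1, Id4 was high in CN4, and KN1 had the most Tcf4 and Tcf12 reads but the smallest share of cells with them.

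For the ratios between lines, a difference of 2-fold either way was the size rule, since 1 library per line allows no test. The genes compared were those listed in both tables and found in at least 1% of the cells of either line. Between XN1 and CN4, the most alike pair, 17.6% of 12282 genes were past 2-fold (9.29% higher and 8.33% lower in XN1), and 1 of 7 members was: Id4 was 33.4-fold lower in XN1 (23.1 to 50.1). In all, 0.0977% of the genes compared had a lower ratio. Id4 was found in 0.512% of XN1 and 13.2% of CN4 cells, so it was compared only through CN4, where it was high. Its rank is thus no independent support, and its XN1 level rests on 29 reads. The Id2 ratio of XN1 to CN4 was 1.27 (1.21 to 1.32) and the Id1 ratio 0.964 (0.855 to 1.09), both within 2-fold. Id3 was 1.66-fold lower in XN1 than in CN4 (1.61 to 1.72), also within 2-fold.

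Against KN1, the line grown without Wnt modulators, the inhibitor genes were higher in both other lines. Between XN1 and KN1, 46.9% of 11872 genes were past 2-fold (23% higher and 23.9% lower in XN1), and 3 of 6 members were past it, all higher. They were Id1 at 2.19-fold (1.90 to 2.53), Id2 at 14.1-fold (12.7 to 15.7) and Id3 at 2.75-fold (2.63 to 2.88). Id2 was the member that stood out of the background, since 0.775% of all genes had a higher ratio, against 20.1% for Id1 and 13.7% for Id3. Between CN4 and KN1, 42.1% of 12126 genes were past 2-fold (21.4% higher and 20.7% lower in CN4), and the members past it were again Id1 at 2.28-fold (1.99 to 2.61), Id2 at 11.1-fold (10.0 to 12.4) and Id3 at 4.58-fold (4.39 to 4.77). These comparisons share the KN1 library and are not independent of each other, and the part of its low complexity in them was not tested. With each cell counted equally, the log2 ratio of Id1 between XN1 and KN1 was 0.89, which is within 2-fold.

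Against XN1 and CN4, XN4 had more Id1 and less Id2. Between XN4 and XN1, whose XAV939 came from different suppliers, 31.2% of 12495 genes were past 2-fold (17.5% higher and 13.8% lower in XN4), and 2 of 6 members were: Id1 was 2.35-fold higher in XN4 (2.13 to 2.59) and Id2 was 11.1-fold lower (10.3 to 11.98). Lower ratios than that of Id2 were found for 3.11% of genes. Between XN4 and CN4, 33.1% of 12717 genes were past 2-fold (18.1% higher and 15% lower in XN4), and the members past it were again 2 of 6, with Id1 2.26-fold higher in XN4 (2.07 to 2.48) and Id2 8.75-fold lower (8.10 to 9.47). Between XN4 and KN1, 43.9% of 12193 genes were past 2-fold (22.2% higher and 21.7% lower in XN4), and 3 of 6 members were. Id1 was 5.15-fold higher in XN4 (4.59 to 5.80), Id3 was 4.27-fold higher (4.10 to 4.45), and Tcf4 was 2.14-fold lower (2.11 to 2.16). Id2 was 1.27-fold higher in XN4 than in KN1 (1.13 to 1.44), which is within the size rule, and in cells not counted as dividing the log2 ratio was -0.05. XN4 also had the connective tissue reads given above, and their part in these ratios was not tested.

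The median log2 ratio of all genes was 0.12 between XN4 and XN1 and -0.10 between XN1 and CN4, and within 0.09 of 0 in the other pairs. Relative to that median, the log2 ratio of Id1 between XN4 and XN1 was 1.116, that of Id2 -3.58, and that of Id4 between XN1 and CN4 -4.96. Dividing by the median moved the share of higher calls among genes past 2-fold from 52.7% to 60.0% between XN1 and CN4, and from 55.9% to 49.8% between XN4 and XN1. It took no Id gene across the 2-fold line.

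Within the inhibitor family, the makeup of the reads differed between lines. Shares were compared between lines, and not between genes of different length. Id3 took 84.3% of the reads of Id1 to Id4 for XN4, 54.0% for XN1, 79.0% for KN1 and 65.5% for CN4. Id2 took 3.694%, 40.7%, 11.6% and 23.4% in the same order. Id1 took 12.02%, 5.09%, 9.34% and 3.85%, so its share was largest where that of Id2 was smallest. Id4 took 7.23% in CN4 and 0.297% in XN1.

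The E-protein family was more even. Tcf4 took 67.0% of the reads of the 3 E-protein genes for XN4, 73.9% for XN1, 70.2% for KN1 and 65.0% for CN4. The share of Tcf12 ran from 23.7 to 30.2%, and that of Tcf3 from 2.46 to 4.75%. The Id reads together came to 504 rpm for XN4, 507 for XN1, 126 for KN1 and 695 for CN4, and the E-protein reads to 1766, 2813, 3605 and 2322. Per 100 E-protein reads, there were 28.5 Id reads for XN4 (28.1 to 29.0), 18.02 for XN1 (17.6 to 18.4), 3.49 for KN1 (3.37 to 3.61) and 29.9 for CN4 (29.4 to 30.5). KN1 was the lowest of the 4 lines. Against Tcf3 alone, the shortest E-protein gene, there were 6.31 Id reads per Tcf3 read for XN4, 7.31 for XN1, 1.35 for KN1 and 6.29 for CN4, so KN1 was again the lowest, the order of the other lines changed, and the gap to KN1 was smaller for XN4 and CN4. These numbers give no ratio of molecules, as E-protein genes are much longer. Gene span also did not cancel between KN1 and the other lines. Over KN1, genes under 10 kb had median log2 ratios of 0.52 for XN1, 0.54 for CN4 and 0.44 for XN4. Genes over 100 kb had -1.30, -1.22 and -1.04 in the same order. The part of this in the low place of KN1 was not tested.

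**Figure D2:**
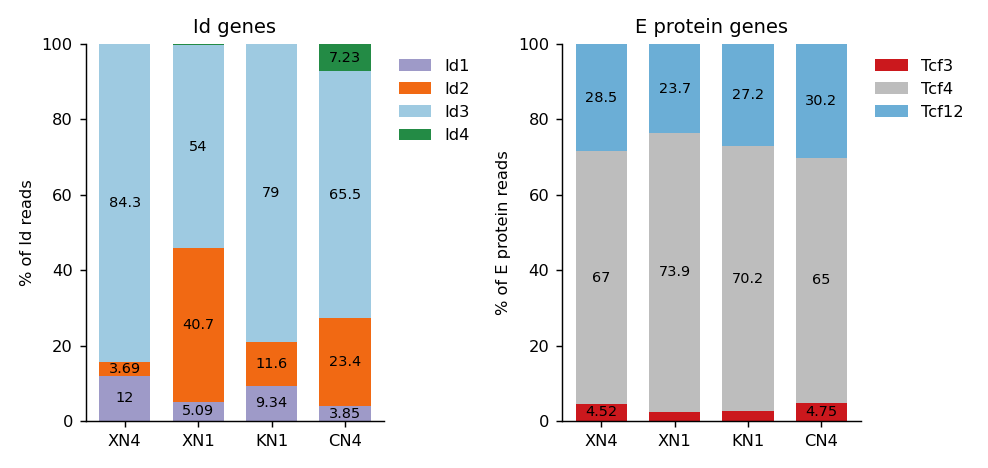
Percent of the reads of the Id family (left) and of the E-protein family (right) taken by each gene in the normalized table of each line. Id2 took 40.7% of Id reads in XN1 and 3.694% in XN4, Id4 was visible in CN4 at 7.23%, and the E-protein shares stayed close between lines.

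Over the 4 lines, the levels of the E-protein genes differed less than those of the Id genes. Between XN1 and CN4 this did not hold for Id1 to Id3. Their log2 ratios were -0.05, 0.34 and -0.73, against -0.67 for Tcf3, 0.46 for Tcf4 and -0.08 for Tcf12. Tcf3, whose E12 and E47 products are general dimer partners, had 79.9 rpm for XN4 (77.2 to 82.6), 69.3 for XN1 (65.7 to 73.1), 93.3 for KN1 (89.7 to 97.0) and 110 for CN4 (106 to 115). The highest and the lowest line differed 1.59-fold. Tcf4, the E protein known for roles in neural progenitors, had 1184 rpm for XN4 (1173 to 1194), 2078 for XN1 (2058 to 2099), 2532 for KN1 (2513 to 2551) and 1510 for CN4 (1494 to 1526). Tcf12 had 503 rpm for XN4 (496 to 509), 665 for XN1 (654 to 677), 980 for KN1 (968 to 991) and 702 for CN4 (691 to 713). Both were lowest in XN4 and highest in KN1. The E-protein ratios between pairs of lines were within 2-fold except for that of Tcf4 between XN4 and KN1, with a log2 ratio of -1.10. With each cell counted equally that log2 ratio was -0.97, which is within 2-fold. The log2 ratio of Tcf12 in the same pair was -0.96, and it passed the 2-fold line (-1.02) once divided by the median of all genes.

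The share of cells did not follow the reads for these genes. Tcf4 had a read in 90.4% of thinned cells for XN4, 99.1% for XN1, 85.7% for KN1 and 96.8% for CN4, and Tcf12 in 67.4%, 81.6%, 55.9% and 81.7%. KN1 thus had the most reads and the fewest cells with a read, so no order of the lines is read from these shares. Among KN1 cells with a Tcf12 read in the normalized table the median was 9 reads, against 3 to 5 in the other lines.

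The long E-protein genes were also set beside genes of their own span. In the comparisons with KN1, genes over 100 kb had median log2 ratios of -1.30 for XN1, -1.22 for CN4 and -1.04 for XN4, whereas genes under 10 kb had 0.52, 0.54 and 0.44. Between XN1 and CN4 the medians of the span classes were between -0.13 and -0.02. Beside the genes over 100 kb, the log2 ratio of Tcf4 between XN1 and KN1, -0.28, was above 74.4% of the class, and that of Tcf12, -0.56, above 68.3%. Between XN4 and KN1, Tcf4 was above 48.8% of the class and Tcf12 above 52.1%, near its middle. Among genes under 10 kb, the Id2 ratio was above 98.9% of genes between XN1 and KN1 and above 99.3% between CN4 and KN1. That of Id3 was above 79.1% and 93.8%, against 86.3% and 96.3% of all genes, and that of Id1 above 69.7% and 74.0%, against 79.9% and 83.1% of all genes. The part of this dependence on gene span in the E-protein ratios and in the Id reads per E-protein read was not tested.

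**Figure D3:**
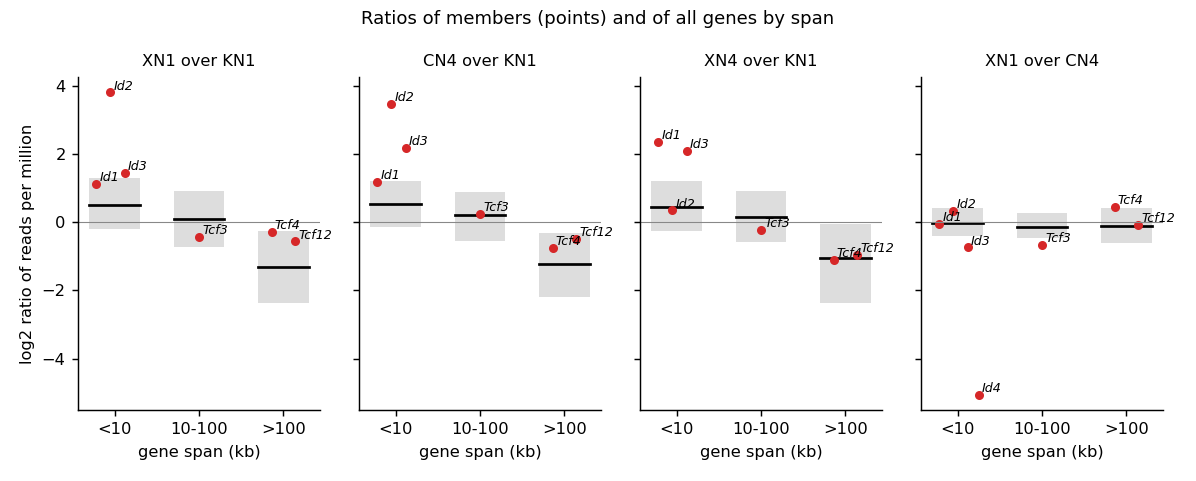
Log2 ratios of scaled reads for the members (points) and for all genes grouped by gene span in kb (bars from the lower to the upper quartile, with the median as a line). In the 3 comparisons with KN1 the medians fell from short to long genes, Id2 stood above its class in XN1 and CN4, and between XN1 and CN4 the classes lay near 0 with Id4 far below.

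Whether cells held more than 1 of the members was examined in each line. At least 1 Id gene had a read in 62.5% of thinned cells for XN4, 68.6% for XN1, 13.5% for KN1 and 74.4% for CN4. At least 1 E-protein gene had a read in 97.0%, 99.8%, 93.9% and 99.3%. Cells with reads of both families made up 60.7%, 68.4%, 12.7% and 73.9%, so nearly all cells with an Id read also had an E-protein read. As nearly all cells had an E-protein read, this overlap shows nothing about association. The part of the low complexity of KN1 in its low shares was not tested. Among Id1 to Id3, Id3 alone was the most frequent state with a read, in 46.7% of thinned cells for XN4, 27.1% for XN1, 10.5% for KN1 and 41.9% for CN4. Id2 with Id3 and without Id1 was found in 16.7% of XN1 cells and 14.3% of CN4 cells.

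The number of cells with both genes of a pair was compared with the number expected from the single shares within 20 strata of total reads. Of 68 pairs and lines with at least 10 expected cells, 4 had an interval that left out 1. With intervals at 95% some can do so by sampling alone, but the rate to set beside 4 of 68 is not known. Pairs with a gene found in nearly all cells can hardly leave 1, and the limits took the expected number as fixed. The count is thus not read as a pattern. All 4 were in CN4, and 3 of them were pairs of inhibitor genes. Id1 with Id2 was found in 206 cells against 152 expected, a ratio of 1.36 (1.18 to 1.55). Id1 with Id4 was found in 71 cells against 51.4 expected, or 1.38 (1.08 to 1.74), and Id2 with Id4 in 200 against 170, or 1.17 (1.02 to 1.34). For Id1 with Id2 the ratio was 1.19 in XN4 (0.988 to 1.41) and 1.122 in XN1 (0.970 to 1.29), with intervals that included 1.

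The remaining pair was Id4 with Tcf3, found in 163 CN4 cells against 197 expected, a ratio of 0.829 (0.709 to 0.962). With strata made separately within dividing and other cells, an alternative added after the values were seen, the ratios were 1.34, 1.35, 1.14 and 0.84 for the 4 pairs. Intervals are not given for these ratios, so they do not show whether 1 would still be left out. Pairs of E-protein genes had ratios between 0.995 and 1.01, but as Tcf4 was found in 86.2 to 99.1% of cells, ratios of its pairs could hardly leave 1 and show nothing about association. Of 41 pairs of an Id with an E-protein gene, that of Id4 with Tcf3 was the 1 whose interval left out 1.

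The members were then compared between dividing and other cells of the same line. A thinned cell counted as dividing with reads of at least 3 of 12 G2-M genes, which gave 673 cells of XN4, 764 of XN1, 810 of KN1 and 1607 of CN4, or 19.9%, 24.4%, 23.9% and 50.9%. Over all genes the median ratio of reads in dividing to other cells was 0.948, 0.986, 1.02 and 0.955. In KN1 the split followed the number of genes found, with a median of 928.5 genes in dividing and 728 in other cells, and 396 of its 810 dividing cells had exactly 3 of the genes. In the other lines these medians were 1749 and 1614 for XN4, 1867 and 1791 for XN1, and 1864 and 1825 for CN4. The intervals of the share of cells with a read were apart for 20.2% of KN1 genes in the higher and 0.248% in the lower direction, and the part of the number of genes found in the KN1 results was not tested.

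Id4 was found less often in dividing cells of CN4. It had a read in 5.91% of dividing cells (4.81 to 7.18%) and 13.3% of the others (11.6 to 15.1%), and its reads per cell gave a ratio of 0.319 (0.260 to 0.388). Lower ratios were found for 0.293% of CN4 genes. The ratio stayed between 0.316 and 0.354 under the other definitions of dividing cells and without the cells with the most reads.

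Id2 was lower in dividing cells of XN1 and CN4 as well. Its ratio was 0.682 in XN1 (0.608 to 0.763) and 0.663 in CN4 (0.601 to 0.731), with a read in 32.1% of dividing against 39.5% of other cells in XN1 and in 23.0% against 29.9% in CN4. The intervals of these shares were apart in both lines, as they were in the lower direction for 11.6% of genes in XN1 and 8.84% in CN4 (higher, 15.3% and 10.8%). In XN4 the ratio was 0.572 (0.353 to 0.888), but 0.979 without the 5% of cells with the most reads. In KN1 it was 0.299 (0.164 to 0.509) and 1.31 when S-phase genes defined the dividing cells, so its direction there rested on the definition. Id1 had ratios from 0.843 to 1.121, and all 4 intervals included 1. Id3 had ratios of 0.852 for XN4 (0.787 to 0.922), 1.07 for XN1 (0.983 to 1.17), 1.22 for KN1 (1.06 to 1.40) and 1.01 for CN4 (0.949 to 1.07), with no shared direction, and with at least 5 G2-M genes as the definition the KN1 ratio was 0.877.

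Among the E-protein genes, Tcf4 had fewer reads in dividing cells of every line, with ratios of 0.758 for XN4 (0.723 to 0.793), 0.872 for XN1 (0.844 to 0.901), 0.847 for KN1 (0.822 to 0.871) and 0.853 for CN4 (0.827 to 0.880). These were not rare values, since 26.3 to 34.8% of genes had a lower ratio. The share of cells with a Tcf4 read was apart between dividing and other cells in XN4, at 85.4% against 91.6%. Over all XN4 genes, such intervals were apart for 9.73% in the lower and 17.8% in the higher direction. In KN1 the share of cells with a Tcf4 read had a ratio of 1.01, so the lower reads were not matched by fewer cells there. Tcf3 was higher in dividing cells of XN1, with a ratio of 1.57 (1.33 to 1.84) and a read in 24.0% against 15.7% of cells. In that direction the intervals were apart for 15.3% of XN1 genes. In the other lines the Tcf3 ratios ran from 1.04 to 1.14 and their intervals included 1. The difference of Tcf3 between lines was not tested. Tcf12 had ratios from 0.909 to 1.02, and in KN1 a read in 60.6% of dividing against 54.4% of other cells, with intervals apart.

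**Figure D4:**
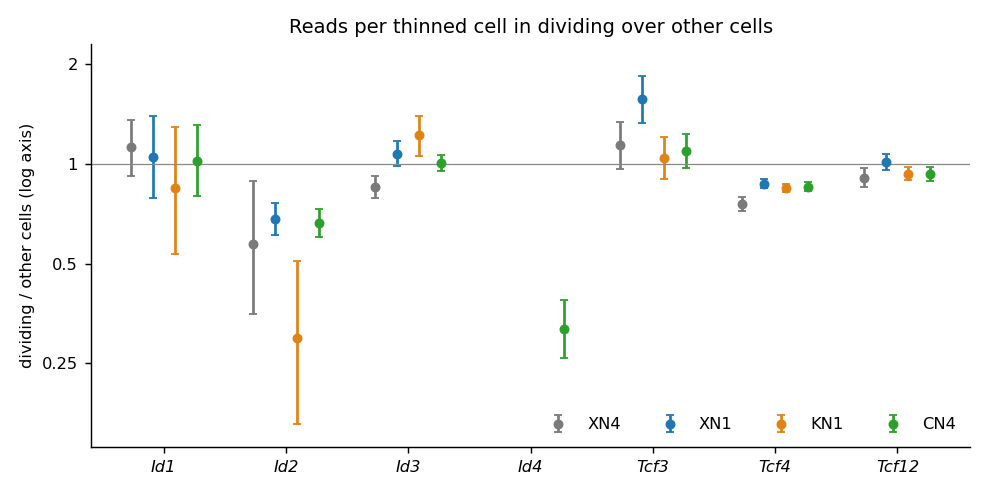
Ratio of reads per thinned cell in dividing over other cells for each member and line, on a log axis with exact 95% intervals of the split of the reads. Id4 in CN4 (0.319) and Id2 lay below 1, Tcf4 lay slightly below 1 in all 4 lines, and Tcf3 was highest in XN1 (1.57); Id4 is drawn for CN4, as XN1 had few reads.

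The CN4 cells with an Id4 read were described further among cells with fewer than 3 G2-M genes, which left out those counted as dividing. There, 206 thinned cells had an Id4 read and 1345 had none, with medians of 1797.5 and 1830 genes. Over all 8148 genes compared, the intervals of the share of cells were apart for 4.37% in the higher and 5.01% in the lower direction. Olig1 and Olig2, bHLH factors of motor neuron and oligodendrocyte progenitors, were found less often with Id4: Olig2 in 57.8% (50.7 to 64.6%) against 81.2% (79.0 to 83.2%) and Olig1 in 65.0% against 86.7%. Myc, a growth-promoting bHLH gene, was found in 11.7% against 26.0%. The summed reads of the Olig and general bHLH list were 0.569 of those in cells without Id4 (0.533 to 0.608). The oligodendrocyte precursor list, which shares Olig1 and Olig2, stood at 0.554 (0.517 to 0.593), the S-phase genes at 0.516 (0.461 to 0.577), the connective tissue genes at 0.572 (0.475 to 0.684) and the BMP list at 0.933 (0.869 to 1.00).

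Genes of astrocytes lay in the opposite direction. The summed reads of the 8 astrocyte genes in cells with Id4 were 1.36 times those in cells without (1.31 to 1.42). Aldoc was found in 58.3% against 47.1% of cells, and Slc1a2, a glutamate transporter, in 51.5% against 38.6%, with intervals apart for both. Slc1a3 was found in 96.1% against 94.0%, and these intervals overlapped, with mean reads per cell of 11.1 against 8.76. Of the neural progenitor genes, Sox2 was found in 81.1% (75.04 to 86.2%) against 64.9% (62.3 to 67.5%). Fabp7 and Vim were in nearly all cells of both kinds, so their shares could hardly show a difference. Their mean reads per cell were 18.3 against 13.1 for Fabp7 and 8.62 against 8.08 for Vim. Hes5, a Notch target, was found in 22.3% against 14.6%, with intervals apart, and Hes1 in 29.6% against 29.4%. Of the neuronal commitment genes, Btg2, a gene of differentiating divisions, was found in 43.7% against 27.5%, and Map2 and Dll1 had overlapping intervals. As sums, the neural progenitor list stood at 1.24 (1.21 to 1.27), the Hes and Hey list at 1.29 (1.14 to 1.45) and the neuronal commitment list at 1.25 (1.16 to 1.34).

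**Figure D5:**
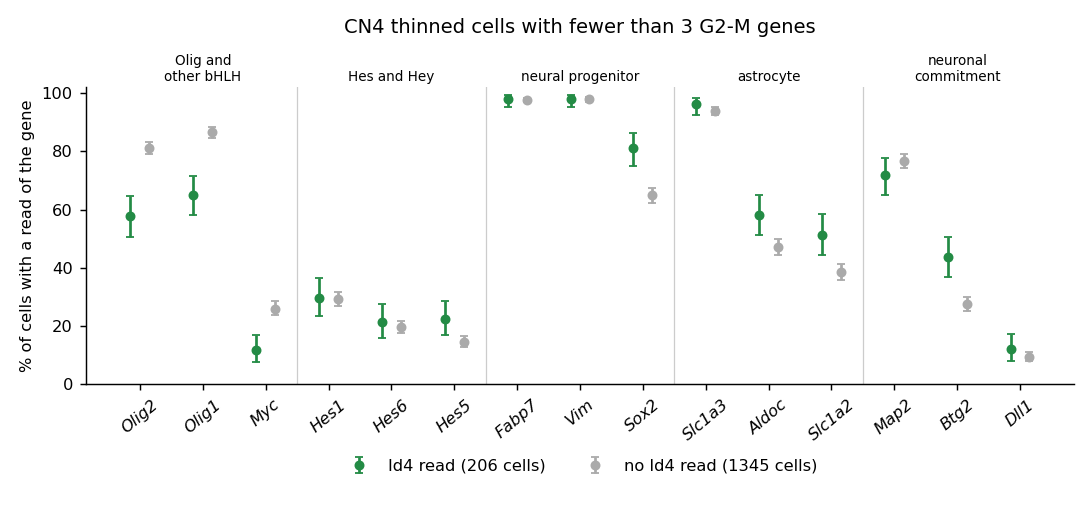
Percent of CN4 thinned cells with fewer than 3 G2-M genes that had a read of each gene, for the 206 cells with and the 1345 cells without an Id4 read, with exact binomial 95% intervals; genes are the 3 most abundant of each list. Olig1, Olig2 and Myc were lower and Sox2, Hes5, Aldoc, Slc1a2 and Btg2 higher in cells with Id4.

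The same split was made for Id2. In CN4 the intervals were apart for 1.04% of genes in the higher and 1.29% in the lower direction between 463 cells with and 1088 without an Id2 read, and in XN1 for 0.275% and 0.374% between 933 and 1432 cells. In CN4 the neuronal commitment list had 1.27 times the reads in cells with Id2 (1.20 to 1.34), and in XN1 the ratio of that list was 1.03 (0.983 to 1.08). In XN4, 334 cells with and 2377 without an Id1 read had intervals apart for 2.01% of genes in the higher and 0.614% in the lower direction, and the Hes and Hey genes summed to 1.61 times the reads with Id1 (1.34 to 1.92). The cells with Id1 also had more genes, with a median of 1675.5 against 1605, and the part of this in the ratio was not tested.

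The genes most alike in their pattern over cells were sought by Pearson's r of log values in thinned cells of a line, among genes found in at least 10% of them. A gene was named when among the top 20 in at least 3 lines, or in each line where a member was measured in fewer. For Id1, Id2, Id3, Tcf3 and Tcf12 no gene met this. For Tcf4 there was 1, the nuclear long noncoding RNA Malat1, with r of 0.168 for XN4, 0.133 for XN1, 0.0600 for KN1 and 0.167 for CN4. For Id4, measured in CN4 alone over 3158 cells and 5683 genes, the first were Pltp (0.206), Fos (0.202), Igsf11 (0.200), Paqr8 (0.188) and Cdh11 (0.184). These cells share 1 library and 1 depth, and correlations of this size in sparse counts are given as values only. Among the members, Id2 ranked first of 5683 genes for Id1 in CN4 (r = 0.0916) and 59 of 5563 in XN1 (r = 0.0430). Id3 ranked 6 for Id1 in CN4 (r = 0.0776), 12 of 5251 in XN4 (r = 0.0646) and 471 in XN1 (r = 0.0235). Tcf4 ranked 116 for Tcf12 in XN4 (r = 0.0537), 2 of 5562 in XN1 (r = 0.0984), 985 of 2293 in KN1 (r = 0.0169) and 4 of 5682 in CN4 (r = 0.145), so these ranks differed between lines.

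Genes around the circuit were counted by the same 2-fold rule. Of 22 genes of BMP response, receptors and ligands, 17 were compared between XN4 and XN1, of which 8 were higher and 1 lower in XN4, with a median log2 ratio of -0.08. Over all genes, 17.5% were higher and 13.8% lower in XN4 in this pair. Between XN1 and KN1, 1 of 12 was higher and 2 were lower in XN1, and between CN4 and KN1, 4 of 12 were higher and 2 lower in CN4, which is to be read beside the 46.9% and 42.1% of all genes past 2-fold in these pairs. In XN4 against KN1, 5 of 14 were higher and 2 lower, in XN4 against CN4, 7 of 17 higher and 4 lower, and in XN1 against CN4, 0 of 15 higher and 4 lower. Past 2-fold over all genes were 43.9%, 33.1% and 17.6% in these pairs, in the same order. The most abundant of these genes, the receptors Bmpr2 and Bmpr1a and the signal transducer Smad5, kept within 2-fold for Bmpr2 (196 to 348 rpm) and Bmpr1a (198 to 332), whereas Smad5 ran from 127 in KN1 to 311 in CN4. The median log2 ratio of the list was 0.35 between XN1 and KN1 and 0.67 between CN4 and KN1, against 0.02 and 0.09 over all genes.

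Other bHLH lists differed between lines in their own way. Of 7 Olig and other glial or general bHLH genes, 4 of 4 compared were higher in XN1 and in CN4 than in KN1, 3 of 3 were lower in XN4 than in XN1 and in CN4, 1 of 2 was lower in XN4 than in KN1, and 0 of 5 were past 2-fold between XN1 and CN4. Over all genes, 23% were higher in XN1 and 21.4% in CN4 than in KN1. Lower in XN4 were 13.8% against XN1, 15% against CN4 and 21.7% against KN1, and 17.6% were past 2-fold between XN1 and CN4. The median log2 ratio of the list was 1.81 between XN1 and KN1 and 1.76 between CN4 and KN1, against 0.02 and 0.09 over all genes. Olig2 had 890 rpm for XN1, 310 for KN1 and 896 for CN4. Of 8 Hes and Hey repressors, those past 2-fold were lower in XN4, at 3 of 3 against XN1, 3 of 4 against CN4 and 2 of 3 against KN1 (13.8%, 15% and 21.7% of all genes). In XN1, 3 of 4 were lower than in CN4 and 1 of 4 lower than in KN1, and in CN4, 2 of 5 were higher than in KN1. Over all genes, these shares were 8.33%, 23.9% and 21.4%. Hes1 had 77.6 rpm for XN4, 157 for XN1, 101 for KN1 and 157 for CN4.

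Of 10 mesodermal bHLH genes, those past 2-fold were higher in XN4, at 2 of 2 against XN1, 2 of 2 against CN4 and 1 of 1 against KN1. Over all genes, 17.5%, 18.1% and 22.2% were higher in XN4 in these pairs, in the same order. Between XN1 and CN4, 1 of 1 was higher in XN1 (9.29% of all genes), and none could be compared in the other pairs. At least 1% of cells had a read for 3 of the 10 genes in XN4, 1 in XN1 and 0 in KN1 and CN4. The genes compared with CN4 and KN1 thus entered through the line where they were high, so the filter largely fixed their direction. Twist1, a mesenchymal bHLH gene that also pairs with E proteins, had 53.6 rpm in XN4, 6.90 in XN1 and 1.66 in CN4. Of the TCF/LEF genes with similar names, Tcf7l1 had 191 rpm for XN4, 56.7 for XN1, 278 for KN1 and 78.4 for CN4, whereas Tcf3 stayed between 69.3 and 110. Tcf7l2 had 224 rpm, 147, 354 and 141 in the same order, and like Tcf4 it was highest in KN1. Of the 4 TCF/LEF genes, 1 was higher and 2 were lower in XN4 than in XN1, and 2 were higher and 2 lower in XN1 than in KN1. Over all genes, 31.2% and 46.9% were past 2-fold in these pairs. Of the TCF/LEF genes compared in the other pairs, 2 of 3 were lower in CN4 than in KN1 and 1 of 3 was lower in XN4 than in KN1. In XN1, 2 of 4 were higher than in CN4, and in XN4, 1 of 3 was higher and 1 lower than in CN4. Over all genes, 42.1%, 43.9%, 17.6% and 33.1% were past 2-fold in these pairs, in the same order.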

How the data were processed

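Single-cell libraries of 4 lines, 1 library each, were analysed. Per the file headers and the submitters' processing notes, the authors made read counts per gene and cell with the BD Rhapsody WTA pipeline 1.12.1 (GRCm38, GENCODE M19), with intronic reads counted; this is known for XN4, XN1 and CN4, and for KN1 the pipeline settings are not given in the sources used here. Tables of all reads (counts) were used for XN4, XN1 and CN4, and none was used for KN1. The deposited normalized tables held natural log values, made by the authors with Seurat 4.3.0 as the log of 1 plus reads per 10000 reads of the cell, without ribosomal protein and mitochondrial genes. Their cell numbers were lower than the number that the methods say was drawn from each library. Whole reads were recovered from 100% of these values (tolerance 0.01), and 0 values differed from the tables of all reads where both were held.

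Reads were pooled per line and scaled to the total reads of the line (rpm), and cells were thinned to 3200 reads for shares of cells. Intervals are exact Poisson (reads) or Clopper-Pearson (cells) intervals at 95% and hold for counting error alone, as several reads can come from 1 molecule. With 1 library per line no test was made; a size rule of 2-fold stood in its place, over genes found in at least 1% of cells of either line. Genes named beside the members were at most the 3 most abundant of each related list, those among the 20 most alike over cells in at least 3 lines (or in every line where the member was measured in fewer; at most 5 a member), or markers of cell types. The members and gene lists were chosen with earlier results of these data known. Doublets were not called. Python 3.11.15, numpy 2.4.6, scipy 1.17.1, pandas 2.3.3, matplotlib 3.10.9, and R 4.3.3 with edgeR 4.0.16 (TMM scaling only, as an alternative) were used, and the ratio, thinning, pair, dividing-cell and correlation steps were tested on simulated data. Alternatives were other scalings, filters, definitions of dividing cells and cell weights. Results on 1 related gene, and on the list that holds it, are not reported here.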

Additional observations from a re-analysis of the deposited data

How the results depend on the processing

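With genes kept only when found in 10% of cells, the number past 2-fold was 2401 between XN4 and XN1 (3904 at 1%), 3207 between XN1 and KN1 (5563), 3103 between CN4 and KN1 (5104), 3216 between XN4 and KN1 (5352), 1093 between XN1 and CN4 (2164) and 2598 between XN4 and CN4 (4211), since fewer genes were compared. Ratios of dividing to other cells whose interval left out 1 changed direction in 6 cases, and the cause was not tested: in KN1, Id2 was 1.31 and Tcf12 1.07 with S-phase genes as the definition, and Id3 was 0.877 with at least 5 G2-M genes. With the share of cells in place of reads, a measure chosen after seeing the data, Tcf4 was 1.01 and Tcf12 1.11 in KN1, and Tcf12 1.02 in CN4. Of 1021 recomputed values, 829 kept their direction and size call or, where no call was made, moved by less than their interval or stayed within 2-fold, 181 moved by more, 6 were those that changed direction, 3 lost and 2 gained the 2-fold size. Those that lost it were Id1 between XN1 and KN1 (log2 0.89) and Tcf4 between XN4 and KN1 (-0.97) with each cell counted equally, and Tcf4 between XN4 and KN1 (-0.99) in cells not dividing, an alternative also added after seeing the data. Tcf12 between XN4 and KN1 gained it after scaling by the median (-1.02) or TMM (-1.03). Ratios within 2-fold could change sign without being counted above: between XN1 and CN4 the log2 ratios of Id1 (-0.05) and Tcf12 (-0.08) were both 0.01 in the tables of all reads and 0.05 and 0.03 with TMM, or 0.05 and 0.02 relative to the median, and that of Id2 between XN4 and KN1 (0.35) was -0.05 in cells not dividing. No paired analysis was possible because each line was 1 library, and for the same reason no replicate could be left out. Few reads limit the precision of Id4 in XN4 and XN1 and of Neurog2 in XN1 and CN4.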
